A study of Mus musculus with 4 samples.

Results

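The target genes of ATF4, the transcription factor of the integrated stress response, were followed by RNA sequencing in lungs carrying 4T1 metastases. The 10 genes are known members of the pathway, listed by name with earlier results of these libraries known: Atf4 itself, Atf5, Ddit3, Trib3, Asns, Chac1, Gdf15, Psat1, Phgdh and Sesn2. They occupy 11 of the 56748 gene rows of the table, because Ddit3 has a second, very short row with 0 counts in every library. Of the 10 genes, 9 had enough counts to be among the 15167 genes tested, and Gdf15 did not.

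All mice were female BALB/cJ, 7 weeks old when 4T1-FLuc cells were injected into the tail vein. 4T1 is a mouse triple-negative breast cancer line, and FLuc is the firefly luciferase used to image it. The saline and cmLumiOpto/PARPi groups, with 2 libraries each, were compared after 3 weeks, and every library of both groups carried the metastases. The saline group received no active agent, and the sample labels call its buffer PBS. The cmLumiOpto/PARPi group received cmLumiOpto, a vector that encodes a light-emitting luciferase and a light-gated cation channel directed to the inner mitochondrial membrane, delivered by AAV in exosomes coated with an antibody to CD276. It also received ViviRen, the luciferase substrate, at 2 mg/kg, and olaparib, an inhibitor of the DNA repair enzyme PARP, at 50 mg/kg. No library with vector alone or olaparib alone was analysed here, so the share of each agent in a difference cannot be told apart. The labels describe harvested tumour cells and the paper describes lung tissue with metastases, and nothing used here says whether 1 library is 1 mouse. The p-values therefore measure only the spread between these libraries, which may be technical.

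In the integrated stress response, kinases that sense a shortage of amino acids, misfolded protein, viral RNA or mitochondrial damage phosphorylate the translation factor eIF2alpha. Protein synthesis then slows, while short upstream reading frames allow more ATF4 protein to be made from its mRNA. ATF4 pairs with other leucine zipper (bZIP) proteins and turns on genes for amino acid supply, and under lasting stress it also turns on genes that promote cell death. The level of Atf4 mRNA is thus only part of what sets the amount of ATF4 protein, and neither protein nor phosphorylation was measured in these libraries.

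ATF4 dimers with C/EBP proteins are known to bind a composite element with the core TGATGNAA, and this element is shown first because it is the feature through which ATF4 is known to reach several of the target genes. The core was searched on both strands of the RefSeq promoter windows (GRCm38.p6), which run from 250 bases before to 50 bases after each start. All 10 genes had at least 1 window, 13 windows in all. The core occurred in 3 genes, Asns, Chac1 and Trib3, and in 3.97% of the 32851 windows of the whole table. In the Asns window it lay on the strand of the gene, 23 to 16 bases before the start. In the Chac1 window it lay on the opposite strand, 193 to 186 bases before the start. In the Trib3 window it also lay on the opposite strand and began 14 bases after the start. The stretches are chr6:7693210-7693309 on the minus strand for Asns, chr2:119351012-119351111 on the plus strand for Chac1 and chr2:152344028-152344057 on the minus strand for Trib3, and capitals mark the core.
Asns: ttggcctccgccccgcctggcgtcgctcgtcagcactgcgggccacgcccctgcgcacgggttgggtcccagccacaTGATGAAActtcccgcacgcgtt
Chac1: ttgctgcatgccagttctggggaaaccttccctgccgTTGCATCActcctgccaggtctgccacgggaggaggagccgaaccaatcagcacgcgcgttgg
Trib3: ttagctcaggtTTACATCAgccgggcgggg
The windows of Atf4, Atf5, Ddit3, Psat1, Phgdh, Sesn2 and Gdf15 did not hold these letters. A related motif, the cyclic AMP response element TGACGTCA, occurred in none of the windows of the 10 genes and in 1.79% of all windows. A match of letters is a description of the sequence, and no binding was measured.

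The gene counts summed to between 15263375 and 16755228 per library, so a level of 3 counts corresponded to 0.179 to 0.197 CPM (counts scaled to a common library size) by the library totals. This floor covers counting error only. The quasi-likelihood test of edgeR was applied to all 15167 genes with Benjamini-Hochberg adjustment. None of the 9 tested genes had an adjusted p under 0.05, and the background was the same, with 0% of all tested genes past that threshold and a smallest adjusted p of 0.138. At an unadjusted p under 0.05, Atf5, Ddit3 and Psat1 were higher after cmLumiOpto/PARPi, 3 of 9, where 9.21% of all tested genes were higher by that rule. No member was lower by it, where 12.0% of all tested genes were. Treated and saline libraries did not overlap, with the treated ones higher, for Atf4, Atf5, Ddit3 and Psat1, 4 of 9 against 27.4% of all tested genes, and with the treated ones lower for Sesn2, 1 of 9 against 27.8%. The median log2 fold change of the 9 genes was 0.17, and that of all tested genes was 0.02. For a single gene, 2 libraries against 2 cannot give a two-sided exact permutation p below 0.333.

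**Figure D1:**
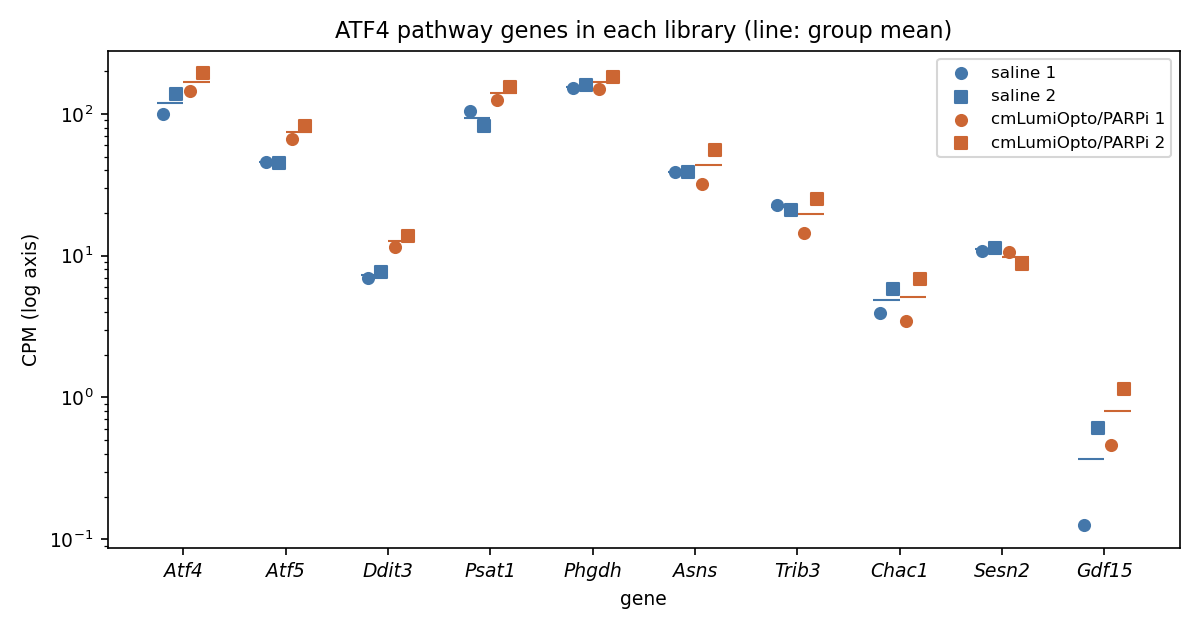
CPM of each of the 10 genes in the 4 libraries on a log axis, with blue points for saline, orange points for cmLumiOpto/PARPi, circles and squares for the first and second library, and a line at each group mean. The treated points lie above the saline points for Atf4, Atf5, Ddit3 and Psat1 and below them for Sesn2, and the points of the other 5 genes overlap.

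The 3 bZIP transcription factors among the genes, Atf4, Atf5 and Ddit3, had the same arrangement of libraries, with both treated values above both saline values. Atf4 (ENSMUSG00000042406, chr15:80139385-80141742, plus strand, positions here and for the other genes as in the table, whose build the submitters' processing notes name as mm39) had 100.4 and 138.8 CPM in the saline libraries and 145.4 and 193.5 CPM in the treated libraries. The highest saline library and the lowest treated library were thus close, and the means were 120 ± 27.2 and 169 ± 34.0 CPM (SD, n = 2 each). The fitted log2 fold change of Atf4 was 0.50 (SE 0.22), with an unadjusted p of 0.0646 and an adjusted p of 0.260 from edgeR's quasi-likelihood test.

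Atf5 (ENSMUSG00000038539, chr7:44461680-44466082, minus strand), a close relative of ATF4 linked to the mitochondrial unfolded protein response, had 45.8 and 45.1 CPM with saline and 66.2 and 81.8 CPM with treatment. The saline libraries were nearly equal for it, and their difference was smaller than that of nearly all tested genes (percentile 5.45). The means were 45.5 ± 0.518 and 74.0 ± 11.05 CPM (SD, n = 2 each), a fitted 1.63-fold difference. Its log2 fold change of 0.70 (SE 0.16) had an unadjusted p of 0.00478 and an adjusted p of 0.138 from edgeR's quasi-likelihood test, the smallest p of the 9 genes. Atf5 overlaps Nup62, a nuclear pore gene on the opposite strand, by 571 bases, and whether reads were counted by strand is not given in the sources used here. Nup62 had a log2 fold change of −0.46, in the other direction.

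Ddit3 (ENSMUSG00000025408, chr10:127126643-127132157, plus strand) encodes CHOP, the bZIP factor of the cell death arm of the response. It had 6.96 and 7.70 CPM in the saline libraries and 11.5 and 13.8 CPM in the treated libraries. The groups did not overlap, and the means were 7.33 ± 0.523 and 12.7 ± 1.64 CPM (SD, n = 2 each). Its log2 fold change of 0.79 (SE 0.25) was the largest of the 9, at percentile 89.8 of all tested genes, with an unadjusted p of 0.0209 and an adjusted p of 0.178 from edgeR's quasi-likelihood test. These values rest on 111, 113, 200 and 230 counts. The short second row of Ddit3 (ENSMUSG00000116429), 105 bases long, lies within the span of the first and held no count. Mars1, which overlaps Ddit3 by 68 bases on the opposite strand, had a log2 fold change of −0.06.

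The genes of amino acid synthesis were not alike in how their libraries were arranged. Psat1 (ENSMUSG00000024640, chr19:15882042-15924701, minus strand), the aminotransferase of the serine pathway, had 105 and 82.5 CPM with saline and 126 and 155 CPM with treatment. Its groups did not overlap, its means were 93.9 ± 16.1 and 140 ± 20.9 CPM (SD, n = 2 each), and its log2 fold change was 0.58 (SE 0.18) with an unadjusted p of 0.0203 and an adjusted p of 0.178 from edgeR's quasi-likelihood test. Phgdh (ENSMUSG00000053398, chr3:98220486-98247306, minus strand), the dehydrogenase that opens the same pathway, had 152 and 160 CPM with saline and 150 and 184 CPM with treatment. The treated libraries of Phgdh enclosed both saline libraries, and its log2 fold change was 0.10 (SE 0.15, unadjusted p of 0.552, adjusted p = 0.746 from edgeR). Psph, the phosphatase that ends the pathway, had 28.7 and 28.2 CPM with saline and 29.4 and 41.1 CPM with treatment, a log2 fold change of 0.31 (unadjusted p of 0.188, adjusted p = 0.424 from edgeR). Of the 3 enzymes that make serine from a glycolytic intermediate, the middle step was thus the one with an unadjusted p under 0.05, and the difference between the enzymes was not tested.

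Asns (ENSMUSG00000029752, chr6:7675169-7693254, minus strand), asparagine synthetase, had 39.2 and 38.9 CPM in the saline libraries and 32.0 and 55.9 CPM in the treated libraries. One treated library was below both saline libraries and the other above both. The log2 fold change of Asns was 0.17 (SE 0.27, unadjusted p of 0.560, adjusted p = 0.751 from edgeR), and its means were 39.1 ± 0.202 and 43.9 ± 16.9 CPM (SD, n = 2 each).

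The genes of feedback and cell death other than Ddit3 had the same split between the treated libraries as Asns. Trib3 (ENSMUSG00000032715, chr2:152179342-152185952, minus strand), a pseudokinase that restrains ATF4 and AKT, had 22.8 and 20.99 CPM with saline and 14.4 and 25.2 CPM with treatment. Its log2 fold change was −0.15 (SE 0.29, unadjusted p of 0.632, adjusted p = 0.798 from edgeR). Chac1 (ENSMUSG00000027313, chr2:119181710-119184862, plus strand), which degrades glutathione, had 3.95 and 5.86 CPM with saline and 3.45 and 6.80 CPM with treatment, from 60 to 113 counts per library. Its log2 fold change was 0.06 with the largest standard error of the 9 genes, 0.45 (unadjusted p of 0.892, adjusted p = 0.952 from edgeR). For both genes the treated libraries enclosed the saline libraries.

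Sesn2 (ENSMUSG00000028893, chr4:132219343-132237812, minus strand), a leucine sensor that holds back mTORC1, was the member with both treated libraries below both saline libraries, but by little. It had 10.8 and 11.3 CPM with saline and 10.7 and 8.78 CPM with treatment, and its log2 fold change was −0.18 (SE 0.24, unadjusted p of 0.480, adjusted p = 0.693 from edgeR). Gdf15 (ENSMUSG00000038508, chr8:71082043-71085106, minus strand), a secreted stress hormone, had 2 and 9 counts with saline and 8 and 19 counts with treatment. Their exact Poisson 95% intervals were 0.242 to 7.22, 4.12 to 17.1, 3.45 to 15.8 and 11.4 to 29.7 counts and cover counting error only. The groups of Gdf15 overlapped, it was not tested, and 1 saline library was under the floor of 3 counts.

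**Figure D2:**
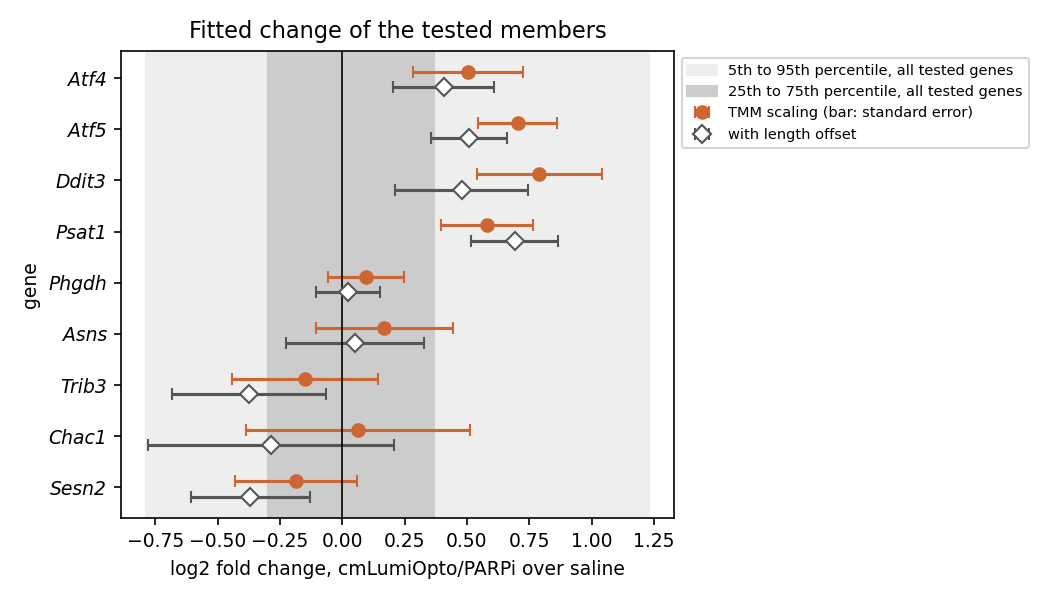
Log2 fold change of cmLumiOpto/PARPi over saline for the 9 tested genes from edgeR's fit (orange) and with length offsets (open diamonds), with bars of 1 standard error and grey bands for the 25th to 75th and 5th to 95th percentiles of all tested genes. Orange points of Ddit3, Atf5, Psat1 and Atf4 lie at 0.50 or more, above the inner band, and those of the other 5 genes lie inside it, between −0.18 and 0.17.

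Per kilobase of the gene length in the table, Phgdh and Atf4 had the highest levels in the saline libraries, 62.8 ± 2.05 and 50.7 ± 11.5 CPM per kb (SD, n = 2 each), and their difference was about the spread of Atf4. Atf5 and Psat1 followed at 22.8 ± 0.260 and 22.1 ± 3.79 CPM per kb and did not differ beyond their spread. Asns had 14.3 ± 0.0738, Trib3 10.3 ± 0.612 and Ddit3 4.28 ± 0.305 CPM per kb. Sesn2 and Chac1, at 3.19 ± 0.0941 and 2.997 ± 0.825 CPM per kb, again did not differ beyond their spread, and Gdf15 was last at 0.199 ± 0.186 CPM per kb. In the treated libraries Atf4, at 71.9 ± 14.4 CPM per kb, stood above Phgdh, at 67.1 ± 9.51 CPM per kb, by less than the spread of either, and Ddit3 reached 7.40 ± 0.960 CPM per kb.

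The treated libraries differed from each other in one direction for nearly every tested member. The second treated library was above the first in 8 of the 9 genes, the exception being Sesn2, and in 49.8% of all tested genes. Among the 9 tested genes the difference was largest for Chac1, 1.97-fold, Asns, 1.75-fold, and Trib3, 1.75-fold. These are the 3 genes with the composite core in their promoter window. That these are the same 3 genes was noticed after their values had been seen and was not tested. Their absolute log2 differences of 0.98, 0.81 and 0.80 stood at percentiles 88.9, 85.4 and 85.3 of all tested genes. Gdf15, not tested and without the core, differed by a larger ratio, with 0.461 and 1.14 CPM from 8 and 19 counts. In the 150 bases before the start, only Asns held the core. Atf4 differed 1.33-fold between the treated libraries, Atf5 and Psat1 1.24-fold, Phgdh 1.22-fold and Ddit3 1.20-fold. Between the saline libraries the second was higher in 5 of the 9 genes, and Asns was almost equal, at percentile 2.53. The mean log2 CPM of the 9 genes was 4.92 and 5.01 with saline and 5.01 and 5.44 with treatment, so the first treated library was level with the second saline library.

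**Figure D3:**
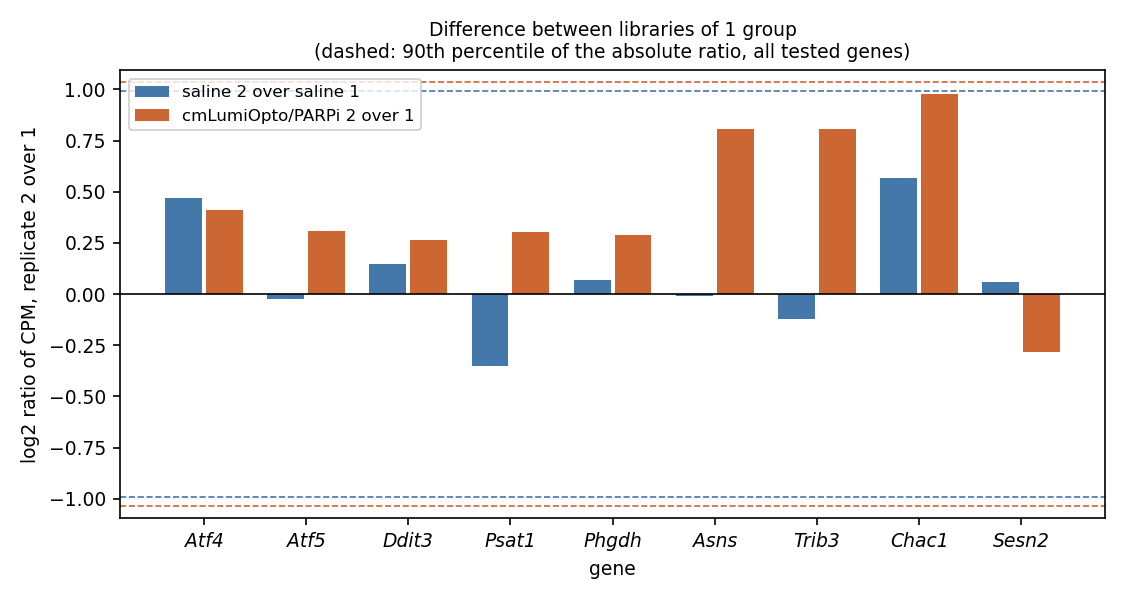
Log2 ratio of CPM in the second to the first library of the saline group (blue bars) and the cmLumiOpto/PARPi group (orange bars) for the 9 tested genes, with dashed lines at the 90th percentile of the absolute ratio over all tested genes. In the treated group 8 genes lie above 0 and Sesn2 below it, and Chac1, Asns and Trib3, at 0.80 to 0.98, lie farthest out but inside the dashed lines.

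Each library was also left out in turn, which leaves 1 library in its group, assumed to vary like the pair of the other group, so these counts also depend on which pair gave the spread. Without the first treated library, 5 members had an unadjusted p under 0.05 from edgeR's quasi-likelihood test where 11.8% of all tested genes did, and the median log2 fold change of the 9 genes was 0.52. Without the second, 1 member did, where 21.6% of all tested genes did, and the median was −0.07. Without the first or the second saline library, 2 and 3 members did, where 19.3% and 10.7% of all tested genes did, and the medians were 0.16 and 0.36. Atf4, Atf5, Ddit3 and Psat1 kept a positive log2 fold change in each of these fits.

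Cell type markers also differed between the treated libraries and between the groups. The summed level of 10 tumour epithelial markers was 2925 and 3375 CPM with saline and 2548 and 3648 CPM with treatment, and that of 10 proliferation markers was 1376 and 1378 CPM against 1015 and 1323 CPM. Both sums were lowest in the first treated library, where Asns, Trib3 and Chac1 were also lowest. Most of the tumour epithelial sum came from Krt8 (1144 and 1560 CPM with saline, 998 and 1640 CPM with treatment) and Krt18. Krt18 had 909 and 1016 CPM with saline and 740 and 1261 CPM with treatment. Krt14, Tfap2a and Trps1 were also lowest in the first treated library. Epcam, Cdh1, Krt17 and Tfap2c were instead highest there, and Krt19 was neither. The sum of 8 alveolar type 2 markers was 1719 and 464 CPM with saline and 8328 and 2973 CPM with treatment, the sum of 6 club cell markers was 1152 and 82.4 CPM against 5696 and 3190 CPM, and the sum of 7 fibroblast markers was 5167 and 3583 CPM against 1682 and 1891 CPM. Airway and alveolar markers were thus higher, and fibroblast markers lower, in both treated libraries, and the libraries held more than tumour cells. At an unadjusted p under 0.05 from edgeR's quasi-likelihood test, 7 of the 8 alveolar type 2 and 6 of the 6 club cell markers were higher, 6 of the 7 fibroblast markers were lower, and of the 10 tumour epithelial markers and of the 10 proliferation markers 1 was higher and 1 lower, where 9.21% of all tested genes were higher and 12.0% lower. The remaining alveolar type 2 marker, Abca3, was at a log2 fold change of −0.33, with both treated libraries below both saline libraries. The tumour epithelial sums of the groups overlapped, and both proliferation sums of the treated group were below those of the saline group. Mki67, a long gene that weighs in the proliferation sum, was at −0.65 and at −0.23 with length offsets. Top2a, which weighs most in it, was at −0.34 and at 0.07 with them. With the length offsets 2 proliferation markers were higher and none lower at an unadjusted p under 0.05. Of all tested genes 7.64% were then higher and 7.60% lower. The sums of alveolar type 1 markers (132 to 312 CPM with saline, 431 to 878 CPM with treatment) and ciliated cell markers (7.496 to 14.4 CPM against 36.9 to 68.5 CPM) were higher with treatment. The sums of the other markers overlapped between the groups, and for example the B cell sums were 4.97 to 46.3 CPM with saline and 31.7 to 53.7 CPM with treatment. The median log2 fold changes of endothelial, neutrophil, macrophage, T cell, B cell, erythroid and cardiac muscle markers were 0.43, 0.40, 0.26, 0.83, 1.35, 0.77 and 1.01, and 2 of the 6 B cell markers were higher at an unadjusted p under 0.05. Tfap2c was near 0 in every library (3 to 19 counts), the B cell marker Ms4a1 and the ciliated cell marker Dnah5 were at 0 in the second saline library, and the cardiac marker Nppa had at most 2 counts. The part of these differences in the values of the ATF4 pathway members, Asns, Trib3 and Chac1 among them, was not tested. In bulk RNA fewer cells of a type and less RNA per cell cannot be told apart.

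A plot of log2 fold change against gene length over all tested genes sloped downwards (Spearman's rho −0.37 across genes, which share the 4 libraries), so longer genes tended to be lower after treatment. The members are 1637 to 4254 bases long in the table. With offsets that remove the trend with length and level, the log2 fold change was 0.69 for Psat1 (unadjusted p of 0.00828, adjusted p = 0.267 from edgeR), 0.51 for Atf5 (unadjusted p of 0.0172, adjusted p = 0.269 from edgeR), 0.48 for Ddit3 (unadjusted p of 0.127, adjusted p = 0.434 from edgeR) and 0.41 for Atf4 (unadjusted p of 0.0924, adjusted p = 0.391 from edgeR). Psat1 and Atf5 thus kept an unadjusted p under 0.05 and Ddit3 did not. Of all tested genes 7.64% were then higher and 7.60% lower by that rule. The values of Chac1, Trib3 and Sesn2 were −0.28, −0.37 and −0.37, and the median of the 9 genes moved from 0.17 to 0.05, where that of all tested genes was −0.01.

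The counts of each member were also set against those of Atf4 in the same library, a measure chosen after the values had been seen and one that does not depend on library scaling. For each 100 counts of Atf4, Trib3 had 22.7 and 15.1 counts with saline and 9.90 and 12.998 counts with treatment. Phgdh had 152 and 115 counts against 103 and 94.8 counts, Sesn2 10.8 and 8.15 against 7.36 and 4.54 counts, and Chac1 3.94 and 4.22 against 2.38 and 3.51 counts. For these 4 genes both treated libraries were below both saline libraries, while Ddit3, with 6.93 and 5.55 counts against 7.92 and 7.15 counts, was the gene with both above. Asns, with 39.0 and 28.03 counts against 22.0 and 28.9 counts, overlapped, as did Atf5, Psat1 and Gdf15. Of all tested genes 49.8% had a lower and 3.10% a higher ratio in both treated libraries, and since Atf4 was itself higher in both, a gene with level values has a lower ratio by construction. The lower ratios of these 4 genes thus add nothing to the value of Atf4, and no ratio was tested.

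**Figure D4:**
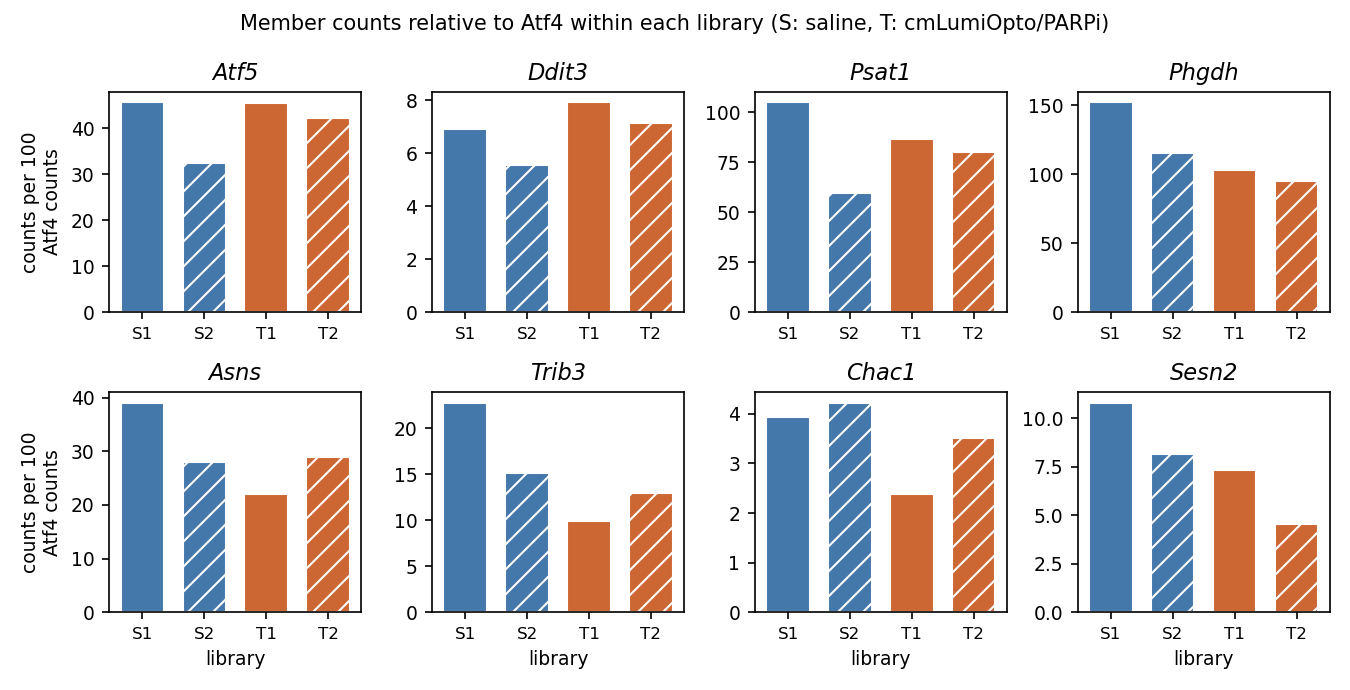
Counts of 8 members per 100 counts of Atf4 in the same library, as bars from 0 for the saline libraries (S1, S2, blue) and the cmLumiOpto/PARPi libraries (T1, T2, orange), each gene on its own scale. Trib3, Phgdh, Sesn2 and Chac1 are lower in both treated libraries, Ddit3 is higher in both, and Atf5, Psat1 and Asns overlap.

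The rest of the pathway was described through lists of its known parts, upstream first. Of 8 kinases of eIF2alpha and their activators, 1 was higher and 2 were lower at an unadjusted p under 0.05. Of all tested genes 9.21% were higher and 12.0% lower by that rule, and the median log2 fold change of the list was −0.25. Oma1, the mitochondrial protease that passes mitochondrial stress to the kinase HRI, had 8.91 and 8.25 CPM with saline and 19.4 and 11.7 CPM with treatment, a log2 fold change of 0.86 (SE 0.31, unadjusted p of 0.0337, adjusted p = 0.205 from edgeR). Its partner Dele1 had 37.1 and 46.4 CPM against 38.9 and 38.2 CPM, and Eif2ak1, which encodes HRI, had 59.3 and 46.5 CPM against 38.7 and 42.4 CPM (log2 fold change −0.38, unadjusted p of 0.0714, adjusted p = 0.271 from edgeR). Gcn1, the activator of the amino acid sensor GCN2, had 151 and 168 CPM against 101 and 97.9 CPM (log2 fold change −0.68, SE 0.13, unadjusted p of 0.00235, adjusted p = 0.138 from edgeR), but −0.16 with the length offsets (unadjusted p of 0.210). Eif2ak3, which encodes the endoplasmic reticulum kinase PERK, had a log2 fold change of −0.57 (SE 0.22, unadjusted p of 0.0416, adjusted p = 0.221 from edgeR). With the length offsets no gene of this list kept an unadjusted p under 0.05, Oma1 being at 0.58 and Eif2ak3 at −0.49, and the list median was −0.07.

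Of 11 genes of eIF2, its exchange factor eIF2B and its phosphatase, 1 was higher and none lower at an unadjusted p under 0.05. Of all tested genes 9.21% were higher and 12.0% lower by that rule. The gene was Eif2b4, with a log2 fold change of 0.56 (unadjusted p of 0.0358, adjusted p = 0.210 from edgeR). With the length offsets Eif2b4 was at 0.39, with an unadjusted p of 0.0944. By the same rule 2 other genes of this list were then higher and none lower. They were Eif2s1, at 0.50 (unadjusted p of 0.0134 from edgeR), and Eif2s2, at 0.38 (unadjusted p of 0.0445 from edgeR). Of all tested genes 7.64% were then higher and 7.60% lower. Ppp1r15a, the ATF4 target gene whose product GADD34 reverses the phosphorylation, had 12.9 and 16.3 CPM with saline and 12.7 and 17.2 CPM with treatment, so the groups overlapped.

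The bZIP partners and co-regulators of ATF4 had the highest median of the lists, 0.22. At an unadjusted p under 0.05, 4 of 9 genes were higher and none lower, where 9.21% of all tested genes were higher and 12.0% lower. With the length offsets 3 were higher and none lower, where 7.64% of all tested genes were higher and 7.60% lower. Atf3, a stress-induced repressor and direct ATF4 target, had 8.91 and 7.15 CPM with saline and 21.5 and 16.2 CPM with treatment, a log2 fold change of 1.23 (SE 0.26, unadjusted p of 0.00350, adjusted p = 0.138 from edgeR). Cebpg, an ATF4 dimer partner, had 48.7 and 29.9 CPM against 90.6 and 67.4 CPM (log2 fold change 1.01, SE 0.27, unadjusted p of 0.0111, adjusted p = 0.152 from edgeR). Nupr1, a small stress-induced co-regulator, had 63.7 and 56.1 CPM against 87.4 and 103.8 CPM (log2 fold change 0.67, SE 0.15, unadjusted p of 0.00489, adjusted p = 0.138 from edgeR). In all 3 both treated libraries were above both saline libraries, and with the length offsets the log2 fold changes of Atf3, Cebpg and Nupr1 were 0.97, 1.15 and 0.57. The other gene was Batf3, a factor of dendritic cells, at 1.12 (unadjusted p of 0.0404, adjusted p = 0.219 from edgeR). With the length offsets Batf3 was at 0.74, with an unadjusted p of 0.101. Cebpb, another partner, had 142 and 118 CPM against 131 and 146 CPM, which overlapped.

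The genes that bring amino acids into the cell or load them on tRNA had medians below 0. The length offsets moved the median from −0.44 to −0.02 for the transporters and from −0.10 to 0.02 for the tRNA genes. With the offsets the median of all tested genes was −0.01. Of 11 tested amino acid transporters, none was higher and 4 were lower at an unadjusted p under 0.05, with both treated libraries below both saline libraries in 7, where 12.0% and 27.8% of all tested genes were lower by these rules. With the length offsets 2 transporters were higher (Slc1a5 and Slc3a2, named after their values had been seen) and 1 was lower (Slc36a4) at an unadjusted p under 0.05. Of all tested genes 7.64% were then higher and 7.60% lower. Slc7a1, the arginine transporter, had 109 and 121 CPM with saline and 69.8 and 80.0 CPM with treatment (log2 fold change −0.62, SE 0.14, unadjusted p of 0.00507, adjusted p = 0.138 from edgeR), and −0.23 with the length offsets (unadjusted p of 0.111). Slc38a1, a glutamine transporter, was at −0.49 and at −0.01 with the offsets, and Slc36a4 was at −0.61 and −0.52. Slc7a11, the cystine transporter and a known ATF4 target, had 127 and 242 CPM against 51.9 and 124 CPM, a log2 fold change of −1.07 with a wide spread (unadjusted p of 0.0664, adjusted p = 0.263 from edgeR). Of 21 genes of cytosolic tRNA loading and export, none was higher and 3 were lower at an unadjusted p under 0.05. The share that was lower was near the 12.0% of all tested genes. With the length offsets 2 were lower, a share near the 7.60% of all tested genes. Without the offsets the lower genes were the following. The 3 genes were Eprs, at −0.53 (unadjusted p of 0.0102, adjusted p = 0.148 from edgeR) and 0.02 with the length offsets, Iars, at −0.53 (unadjusted p of 0.0136, adjusted p = 0.160 from edgeR) and −0.35 with them, and Vars, at −0.57 (unadjusted p of 0.0226, adjusted p = 0.182 from edgeR) and −0.29 with them.

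Of 14 tested genes of serine, glycine, proline and folate metabolism, 1 was higher and 1 lower at an unadjusted p under 0.05. These shares were near the 9.21% higher and 12.0% lower of all tested genes, and the median was 0.04. Pycr3, a proline synthesis enzyme listed in the table as Pycrl, was at 0.63 (unadjusted p of 0.0309, adjusted p = 0.201 from edgeR), and Aldh18a1, which acts earlier in proline synthesis, was at −0.38 (unadjusted p of 0.0295, adjusted p = 0.198 from edgeR). With the length offsets Pycr3 was at 0.31, with an unadjusted p of 0.229, and Aldh18a1 at −0.32. By the same rule no gene of this list was then higher and 2 were lower, Aldh18a1 and Got1 (−0.41). Of all tested genes 7.64% were then higher and 7.60% lower. The folate enzymes Shmt2 and Mthfd2, known ATF4 targets of mitochondria, had 107 and 89.3 CPM against 76.9 and 109 CPM, and 24.1 and 20.8 CPM against 24.4 and 34.4 CPM.

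Among 19 tested genes of other stress outputs of ATF4, 2 were higher and 2 lower at an unadjusted p under 0.05. These shares were near the 9.21% higher and 12.0% lower of all tested genes, and the median was 0.07. Beside Nupr1, which stands in both lists, Gabarapl1 of the autophagy machinery was at 0.35 and at 0.17 with the length offsets (unadjusted p of 0.0400, adjusted p = 0.217 from edgeR), Arhgef2 was at −0.46 and at −0.07 with them (unadjusted p of 0.0178, adjusted p = 0.173 from edgeR) and Stc2, a secreted glycoprotein, was at −1.36 (SE 0.39, unadjusted p of 0.0138, adjusted p = 0.160 from edgeR), from 10.3 and 6.54 CPM with saline to 2.65 and 3.91 CPM with treatment. With the length offsets 2 genes of this list were higher by the same rule, Nupr1 and Map1lc3b (0.60), and 1 was lower, Stc2. Of all tested genes 7.64% were then higher and 7.60% lower. Fgf21 had at most 2 counts in a library.

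The neighbouring stress programmes were counted by the same rule, by which 9.21% of all tested genes were higher and 12.0% lower. Of 20 genes of the ATF6 and IRE1 arms of the endoplasmic reticulum response, 2 were higher and 3 lower at an unadjusted p under 0.05. These shares were near those of all tested genes, and the median was 0.05. The secreted or luminal proteins Creld2 and Manf were at 0.66 and 0.39, and at 0.36 and 0.47 with the length offsets, which ended the call of Creld2, while Sel1l, Atf6 and Mbtps1 were at −0.47, −0.44 and −0.47, and −0.14, −0.10 and −0.01 with the offsets. With the offsets 2 of the 20 genes were higher by that rule, Manf and Hspa5 (0.40), and none lower. Of 14 genes of the mitochondrial unfolded protein response, 2 were higher and none lower by that rule without offsets, with a median of 0.12. With the length offsets 4 were higher and none lower, and the median was 0.11. Of all tested genes 7.64% were then higher and 7.60% lower. Hspe1, the mitochondrial co-chaperonin, had 117 and 122 CPM with saline and 227 and 188 CPM with treatment (log2 fold change 0.80, SE 0.15, unadjusted p of 0.00205, adjusted p = 0.138 from edgeR). Its partner chaperonin Hspd1 had 450 and 408 CPM against 462 and 428 CPM, which overlapped, and Phb was at 0.34 (unadjusted p of 0.0365, adjusted p = 0.211 from edgeR). With the length offsets Hspe1 was at 0.56 and Phb at 0.32. None of the genes in these lists had an adjusted p under 0.05 from edgeR's quasi-likelihood test.

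**Figure D5:**
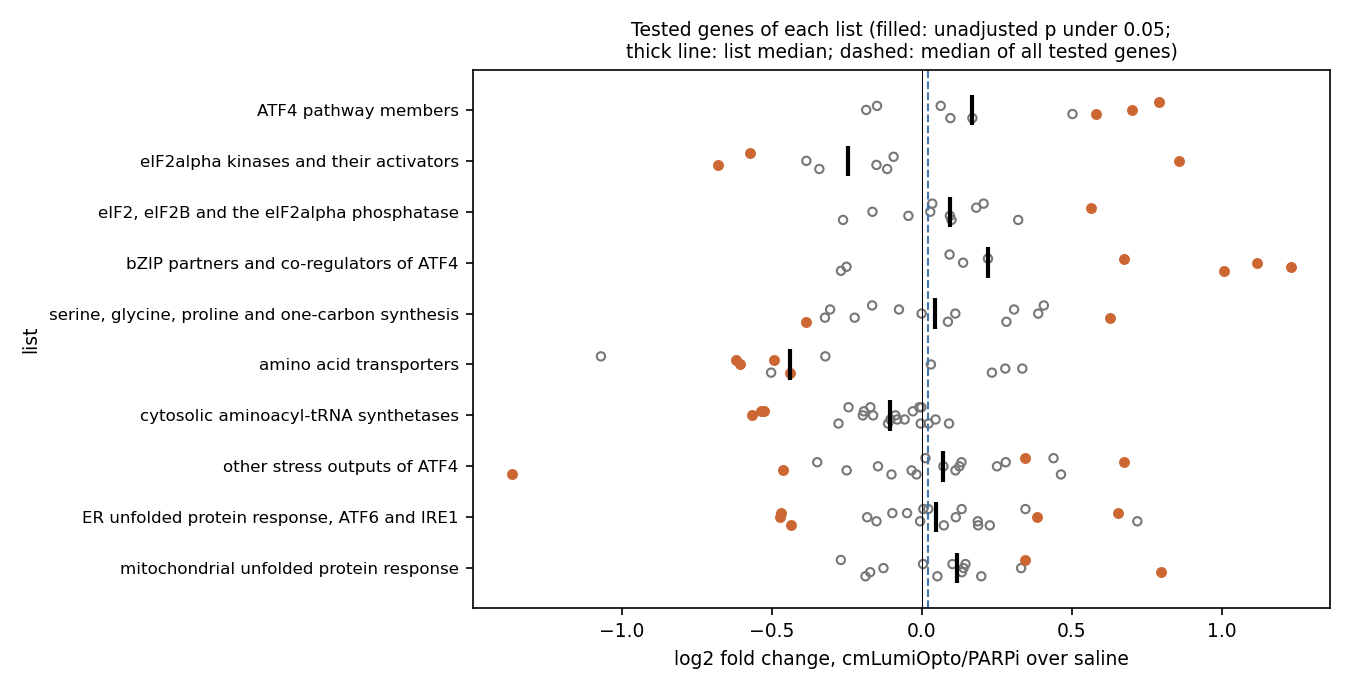
Log2 fold change of every tested gene of the 10 lists, with filled points for an unadjusted p under 0.05, a thick line at each list's median and a dashed line at the median of all tested genes, 0.02. The bZIP partners have the highest median, 0.22, and the amino acid transporters the lowest, −0.44.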

How the data were processed

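RNA was sequenced from 2 saline and 2 cmLumiOpto/PARPi libraries. HISAT2 was the aligner used by the authors, who deposited raw read counts for each gene beside its position and length. The paper names GRCm38 and the submitters' processing notes mm39. Of 52125 genes also found in GENCODE M21 (GRCm38), 2.92% had the same position, so the positions are given as in the table. RefSeq promoters have GRCm38.p6 coordinates. The counter is not given in the sources used here. The members and lists were chosen with earlier results of these data known.

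Counts were tested with edgeR 4.0.16 in R 4.3.3 (TMM, filterByExpr with min.count 10, default glmQLFit and glmQLFTest, Benjamini-Hochberg adjustment over all genes, threshold 0.05). Standard errors were obtained as the absolute log2 fold change over the square root of the F statistic. CPM used the TMM-scaled library sizes. Totals of 15263375 to 16755228 counts set the precision. All members were named, and of each list up to 3 genes in each direction with the smallest unadjusted p under 0.05 and groups that did not overlap. Other list genes (Psph, Dele1, Eif2ak1, Ppp1r15a, Batf3, Cebpb, Slc7a11, Shmt2, Mthfd2, Fgf21, Hspd1) and the overlapping Nup62 and Mars1 were added for their known link to a member, after their values had been seen. Some genes called only with the length offsets (Slc1a5, Slc3a2, Eif2s1, Eif2s2, Got1, Map1lc3b, Hspa5) were also named after their values had been seen. Alternatives were other normalizations, filters and tests (DESeq2 1.42.0 among them), the replicate number as a block, length offsets (loess, span 0.5) and leaving out each library. The code of the fits was checked on simulated counts. These had no trend with length, no tie between same-numbered libraries and larger changes than the members had. The check therefore does not measure the error of the fits in these data.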

Additional observations from a re-analysis of the deposited data

How the results depend on the processing

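Atf4, Atf5, Ddit3 and Psat1 had a positive and Sesn2 a negative log2 fold change under every alternative run, with and without each library. Members with an adjusted p under 0.05 numbered 0 in the main test, 2 without a filter on low counts (Atf5 and Psat1), and 1 (Atf5) with each of DESeq2, edgeR's exact test and its likelihood ratio test. Genes of the whole table past that threshold then numbered 2000, 1011, 815 and 865, against 0 in the main test, where 3221 had an unadjusted p under 0.05. The cause was not tested.

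The replicate numbers are names in the labels, which give no shared origin. Across genes, the deviations of same-numbered libraries from the group means had a Spearman's rho of 0.30, a hint from the data and not from the design. With the replicate number as a block, 2 members (Atf4 and Atf5) and 1822 genes had an adjusted p under 0.05, and with the block and length offsets together 0 members and 404 genes did. Upper quartile scaling moved the median of all genes from 0.02 to 0.13 and that of the members to 0.28, while length offsets brought the latter from 0.17 to 0.05, and 0.02 with the block.

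Members whose direction turned were Chac1, at −0.28 with length offsets and −0.34 with the block and offsets, and Asns, at −0.0011 with both. Without single libraries, the log2 fold change ranged from −0.52 to 0.47 for Chac1, −0.31 to 0.52 for Asns, −0.63 to 0.20 for Trib3 and −0.0777 to 0.23 for Phgdh. The members' median then ranged from −0.0706 to 0.61 (to 0.52 without Gdf15, which was tested in 3 of these 4 fits), members with an unadjusted p under 0.05 from 1 to 5, members whose groups did not overlap from 5 to 10, where 1 library against 2 overlaps less easily, and genes with an adjusted p under 0.05 from 0 to 31. In the 150 bases before the start the composite core occurred in 1 member, Asns. With 2 libraries a group and the depth of Gdf15 and Chac1, differences below the spread given with each gene were not detectable.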
